A study of Mus musculus with 11 samples.

Results

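Homeobox genes outside the Hox clusters were followed in the trigeminal ganglion, which holds the touch, pain and temperature neurons of the face. The tissue came from mouse embryos of embryonic day 13.5 with 2, 1 or 0 intact copies of Pou4f1, the gene of the POU homeodomain factor Brn3a. The genes were chosen by name, with earlier results of these data known. Every probe set was taken whose single gene symbol belonged to the Isl, Lhx, Lmx, Pax, Meis, Pbx, Dlx, Irx, Nkx, Otx, Msx, Prrx, Phox, Tlx, Pitx, Alx, Pou or sine oculis (Six-) families and was followed by a digit, apart from Pou4f1, Irx1 and Meis2. Matches that are not homeobox or paired-box genes were dropped, namely antisense or opposite-strand transcripts of Dlx and Lhx genes and the coactivator Pou2af1. This left 78 probe sets for 64 genes, of 24899 probe sets and 13675 named genes in all. The U74Av2 array held 69 of them (59 genes) and the U74Bv2 array held 9 (8 genes), with Pou2f2, Pou3f3 and Prrx1 on both.

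The groups were wild-type, heterozygote and knockout ganglia, the last 2 with 1 or both copies of the Brn3a gene disrupted. About 10 to 12 ganglia of 1 genotype were pooled for each array, and the labels give no strain, sex or allele structure. Each genotype was measured on 2 U74Av2 arrays, and on U74Bv2 there were 2 knockout, 2 heterozygote and 1 wild-type array. Nothing in the labels says whether arrays with the same number, or arrays of the 2 types, shared a pool or a litter, so a p-value here measures no more than array-to-array spread, which may be technical.

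A homeodomain is a DNA-binding fold shared by a large class of transcription factors, many of which recognise short sequences with a TAAT core. Different families add a further domain, such as the LIM domains of Isl and Lhx proteins, the POU-specific domain of Pou proteins or the paired domain of Pax proteins, and Pbx and Meis proteins are cofactors that bind DNA together with other homeodomain proteins. In sensory ganglia, Brn3a and the LIM factor Isl1 are early markers of differentiating neurons, and Tlx, Pbx, Meis and Six-family genes are also expressed in developing peripheral neurons. Many Dlx, Msx, Alx, Prrx and Pitx genes are better known from the facial mesenchyme and ectoderm, and Nkx and Irx genes from the patterning of the neural tube, heart and other organs.

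Upstream sequences are shown for 5 genes that the comparisons below return to: Six2, Nkx2-5, Dlx1 and Irx2, whose knockout arrays lay above all others, and Tlx3, a sensory neuron factor. Each sequence is the 250 bases before the gene's listed start in RefSeq on GRCm38.p6, read 5′ to 3′ on the gene's own strand. Capitals mark the core TAAT and its reverse complement ATTA.
Six2, chr17:85688255-85688504, minus strand: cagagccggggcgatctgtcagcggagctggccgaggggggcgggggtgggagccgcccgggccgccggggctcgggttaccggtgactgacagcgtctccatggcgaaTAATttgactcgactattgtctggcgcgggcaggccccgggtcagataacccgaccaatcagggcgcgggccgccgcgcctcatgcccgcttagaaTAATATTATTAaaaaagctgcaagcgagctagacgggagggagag
Nkx2-5, chr17:26841566-26841815, minus strand: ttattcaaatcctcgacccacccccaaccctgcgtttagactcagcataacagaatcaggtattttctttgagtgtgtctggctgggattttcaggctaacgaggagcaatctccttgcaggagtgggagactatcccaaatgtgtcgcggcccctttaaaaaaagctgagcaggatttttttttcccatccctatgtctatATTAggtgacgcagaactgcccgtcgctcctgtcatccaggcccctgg
Dlx1, chr2:71529195-71529444, plus strand: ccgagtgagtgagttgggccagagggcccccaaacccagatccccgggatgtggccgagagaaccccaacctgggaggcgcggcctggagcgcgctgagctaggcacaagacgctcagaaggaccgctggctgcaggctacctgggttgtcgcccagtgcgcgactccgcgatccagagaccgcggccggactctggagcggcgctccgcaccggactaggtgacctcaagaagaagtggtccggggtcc
Irx2, chr13:72628570-72628819, plus strand: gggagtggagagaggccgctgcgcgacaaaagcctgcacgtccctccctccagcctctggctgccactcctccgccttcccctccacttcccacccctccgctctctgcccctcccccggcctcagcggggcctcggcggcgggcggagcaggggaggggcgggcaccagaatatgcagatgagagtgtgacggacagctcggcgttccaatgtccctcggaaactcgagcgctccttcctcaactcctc
Tlx3, chr11:33203589-33203838, minus strand: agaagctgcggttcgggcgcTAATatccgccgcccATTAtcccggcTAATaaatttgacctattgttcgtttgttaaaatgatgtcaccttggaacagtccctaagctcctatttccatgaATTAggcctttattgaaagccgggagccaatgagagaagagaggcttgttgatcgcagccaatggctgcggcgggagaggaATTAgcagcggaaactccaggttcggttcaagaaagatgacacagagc
Six2 held 4 matches, Nkx2-5 held 1, Tlx3 held 5, and Dlx1 and Irx2 held 0 in these windows. The core was found on either strand in 23 of the 47 member genes with an entry (48.9%) and in 55.3% of the 27025 windows of all genes, so a match is common in any gene. A longer sequence, CATTAA, on either strand was found in 3 of the 47 (6.38%; Lhx1, Nkx2-2 and Six4) and in 8.1% of all windows. TAAT can overlap CATTAA, since the reverse complement of the core forms part of it. These are matches of letters only, and the arrays did not measure binding.

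Most of these genes gave weak signals. Values are the authors' MAS5 signal intensities, a summary of perfect-match against mismatch probes that stays positive on weak probe sets. Before logs were taken, a constant was added to each signal, 50 for U74Av2 arrays and 49.8 for U74Bv2 arrays. Log2 differences therefore understate changes of weak probe sets. Probe sets whose mean log2 value was above the 40th percentile, equal to a signal of 124.5 on U74Av2 and 172.2 on U74Bv2, were tested. This left 25 of the 69 members on U74Av2 (36.2%, 21 genes) and 0 of the 9 on U74Bv2, so 53 probe sets and 43 genes were not tested. On U74Av2, 25 members never exceeded a signal of 100 on any array. A low signal does not show that a gene was not expressed.

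No member was called in the 4 comparisons at a Benjamini-Hochberg adjusted p below 0.05 over all tested probe sets (limma). Meis2 and Irx1, which the rule left out, were called in knockout against all other arrays (below). The count of called members thus depends on that choice. Over all tested U74Av2 probe sets, the called share was 0.255% for knockout against wild-type, 0.188% for knockout against heterozygote, 0% for heterozygote against wild-type and 0.872% for knockout against the 4 other arrays as 1 group. These comparisons share arrays. At an unadjusted p below 0.05 there were 3 of 25 members against wild-type (12%, with 5.11% of all tested probe sets), 6 against heterozygote (24%, with 5.25%) and 5 against all other arrays (20%, with 7.92%), each of them higher in knockout. Heterozygote against wild-type gave 1 (4%, with 0.698%), a Pax5 probe set that was lower in heterozygote. The median log2 difference of the tested members was 0.22, 0.34, -0.10 and 0.28 in the same order of comparisons, beside 0.02, 0.02, -0.01 and 0.02 for all tested probe sets. The filter uses the mean over all arrays, so a weak gene such as Lhx1 could pass it through its knockout arrays, and these counts support nothing by themselves. Without the filter, the median over all 69 members for knockout against all other arrays was 0.11, with 40 of 69 above 0, beside 0.02 for all probe sets.

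**Figure D1:**
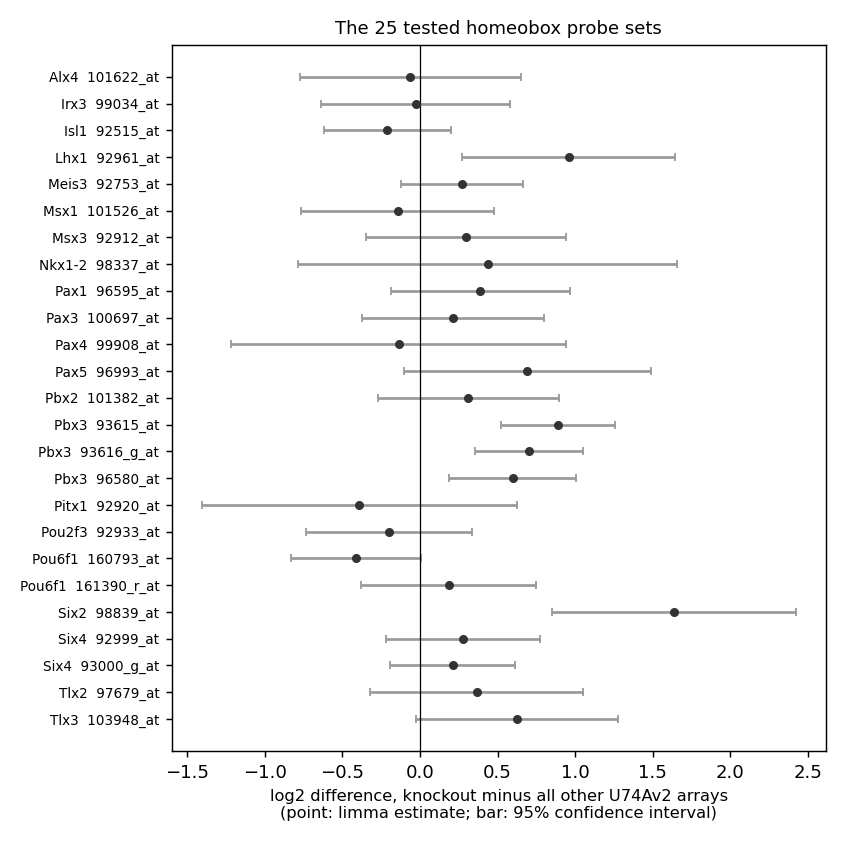
Log2 difference of knockout minus all other U74Av2 arrays for the 25 tested homeobox probe sets, with 95% confidence intervals from limma. The intervals of Six2, Lhx1 and the 3 Pbx3 probe sets lie above 0, while those of Isl1, Tlx2 and Tlx3 include 0; no difference passed the adjusted threshold.

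Both knockout arrays lay above the 4 other arrays for 13 of the 69 members on U74Av2 (18.8%, beside 8.66% of all probe sets) and below them for 5 (7.25%, beside 6.63%). The other 51 overlapped, a word used here and below of members whose knockout arrays lay neither all above nor all below the other arrays, whatever the order of wild-type and heterozygote. The 13 were the 3 Pbx3 probe sets, Six2, 1 of 3 Six4 probe sets, Lhx1, Lhx3, Dlx1, Nkx2-5, Nkx3-2, Meis3, Phox2a and 1 Prrx1 probe set, and the 5 were Lhx8, Meis1, Pax2, Pou3f4 and 1 of 3 Pou6f1 probe sets. On U74Bv2 there was 1 above (Irx2; 11.1%, beside 13.6% of all probe sets), 1 below (Irx5; 11.1%, beside 11.7%) and 7 that overlapped. As a count of non-overlapping groups, the U74Bv2 result was near its background.

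**Figure D2:**
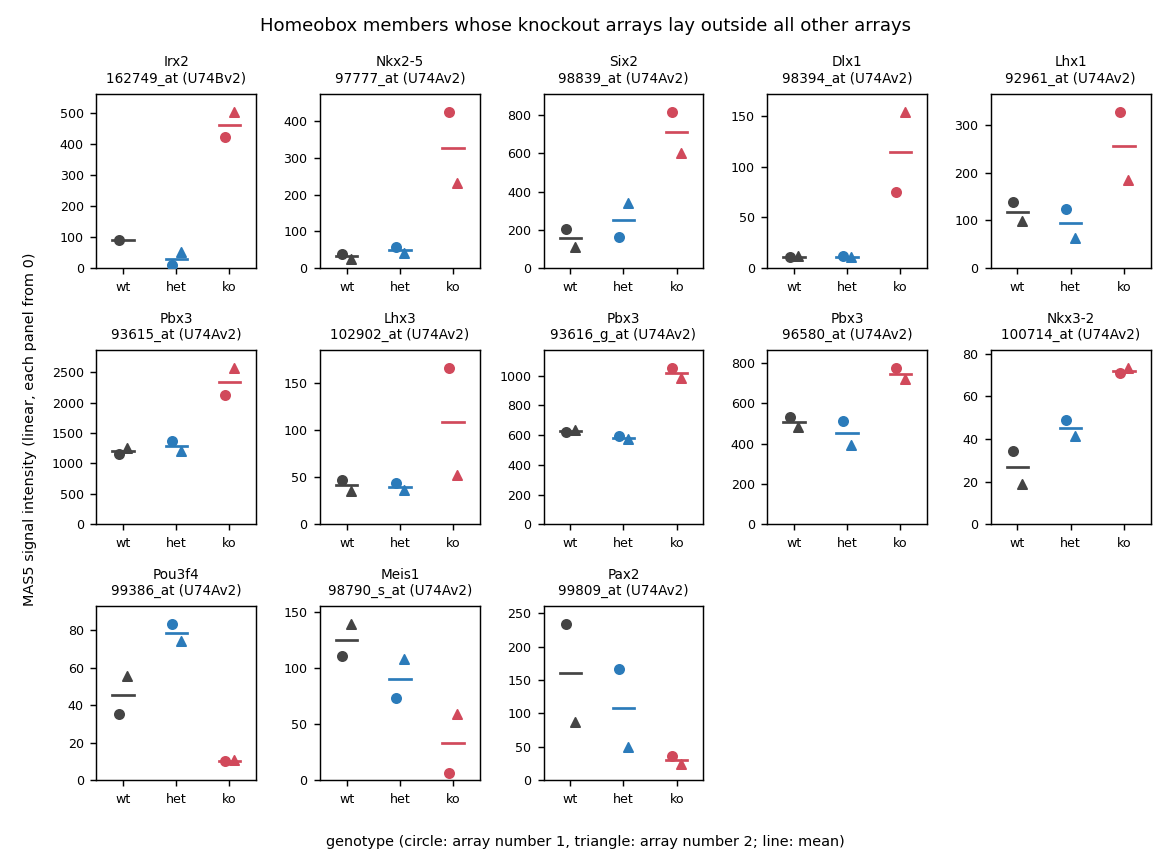
MAS5 signal (linear, each panel from 0) by genotype for the members whose 2 knockout arrays lay outside all other arrays and had an unadjusted p below 0.05; circles are array number 1, triangles array number 2 and lines the means. In Pbx3, Six2, Lhx1, Nkx2-5, Dlx1 and Irx2 both knockout points lie above the rest, and in Pou3f4, Meis1 and Pax2 both lie below.

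Pbx3, a TALE homeodomain cofactor that pairs with Meis and other homeodomain proteins, gave the smallest unadjusted p of the tested members in knockout against all other arrays. Its probe set 93615_at read 1150.3 and 1254.0 in wild-type, 1361.7 and 1197.1 in heterozygote and 2126.0 and 2565.2 in knockout. Wild-type and heterozygote overlapped, and both knockout arrays stood above them. The difference of knockout from all other arrays was 0.89 ± 0.16 (log2 ± SE, 1.85-fold, 95% CI 0.52 to 1.26; limma adjusted p = 0.0537), just short of the threshold. Against wild-type alone it was 0.93 ± 0.21 (adjusted p = 0.293), and against heterozygote 0.85 ± 0.21 (adjusted p = 0.396). As these are pooled bulk samples, more cells with the transcript and more transcript per cell cannot be told apart, here or for any gene below.

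The other Pbx3 probe sets pointed the same way. Probe set 93616_g_at, which shares its target sequence with the first and is not separate evidence, read 620.4 and 636.3 in wild-type, 591.1 and 573.6 in heterozygote and 1050.2 and 981.8 in knockout. Its difference from all other arrays was 0.70 ± 0.15 (adjusted p = 0.115). Probe set 96580_at, designed on another transcript record, read 534.9 and 480.6 in wild-type, 511.3 and 391.4 in heterozygote and 774.4 and 719.2 in knockout, a difference of 0.60 ± 0.18 (adjusted p = 0.33). All 3 had knockout above every other array, and none was called.

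Of the remaining Pbx and Meis genes, Pbx2 and Meis3 were tested and not called, and Pbx4 and Meis1 were too dim to be tested. Pbx2 read 182.2 and 336.6 in wild-type, 194.3 and 265.8 in heterozygote and 277.2 and 341.9 in knockout, and overlapped. Pbx4, on U74Bv2, ranged from 89.2 to 363.2, with its single wild-type array highest. Meis3 read 541.7 and 500.6 in wild-type, 425.3 and 452.3 in heterozygote and 611.6 and 562.8 in knockout. Knockout was above all other arrays by a small step of 0.27 ± 0.17 (adjusted p = 0.898). Meis1 was weak and lower in knockout, at 111.3 and 139.0 in wild-type, 73.0 and 108.2 in heterozygote and 6.5 and 59.4 in knockout. In the fit without the filter its difference was -0.99 ± 0.31 (adjusted p = 0.44). Its probe set has the suffix _s_at, which Affymetrix gives to probes shared by more than 1 transcript.

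Six2, Six4 and their relatives encode homeodomain factors that act with Eya coactivators in cranial placodes, sensory ganglia, muscle and kidney. Six2 read 203.9 and 109.1 in wild-type, 165.2 and 342.2 in heterozygote and 815.4 and 603.7 in knockout. Wild-type and heterozygote values interleaved, and the second heterozygote array was the highest control. Knockout exceeded all other arrays by 1.64 ± 0.34 (3.11-fold, 95% CI 0.85 to 2.42; adjusted p = 0.0994). The difference was 1.90 ± 0.38 from wild-type (adjusted p = 0.215) and 1.37 ± 0.38 from heterozygote (adjusted p = 0.517). Without the second heterozygote array the difference from all other arrays was 1.87 ± 0.28 and called (adjusted p = 0.0461). With all arrays kept and the array number fitted as a block (below), it was called as well (1.64 ± 0.32, limma adjusted p = 0.0289). The call thus depended on that array and on the model.

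Six4, a family member expressed in developing sensory neurons, stayed close to its controls. Probe set 92999_at read 472.5 and 334.6 in wild-type, 434.9 and 300.3 in heterozygote and 441.9 and 502.0 in knockout. Probe set 93000_g_at ran from 248.5 to 284.1 in the other arrays and read 300.2 and 342.9 in knockout, and the weaker 93001_at overlapped. Their differences from all other arrays were 0.28, 0.21 and 0.08 (the last without the filter), of 1 sign and all small. Against wild-type alone they were 0.22, 0.17 and -0.08. Probe sets 92999_at and 93000_g_at were designed on the same transcript record and are not separate evidence. The 2 Six3 probe sets and Six6 stayed at or below 31.1. Six5 read 284.1 on knockout array 1 but 34.0 on knockout array 2, against 38.6 to 71.6 elsewhere, so a single array stood apart.

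Among LIM homeodomain genes, Isl1, a general marker of sensory neurons, did not separate by genotype. It read 2786.8 and 2999.6 in wild-type, 3503.9 and 2649.8 in heterozygote and 2852.4 and 2295.7 in knockout. The difference of knockout from all other arrays was -0.21 ± 0.18 (adjusted p = 0.972), with a 95% interval from -0.62 to 0.20. Lhx1, which acts in spinal and hindbrain interneurons and in kidney, read 137.4 and 99.2 in wild-type, 124.0 and 63.1 in heterozygote and 326.1 and 185.4 in knockout. Both knockout arrays were above the rest, by 0.96 ± 0.30 (1.94-fold; adjusted p = 0.351), and most control arrays were near or below the signal at the filter.

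The other LIM genes were weak. Lhx3, a factor of motor neurons and pituitary, read 35.3 to 47.5 outside the knockout and 165.8 and 52.6 in it, a step carried mainly by knockout array 1 (0.72 ± 0.29 without the filter; adjusted p = 0.633). Lhx8 read 28.1 to 103.7 outside the knockout and 20.2 and 27.1 in it. Lhx5 (15.7 to 51.7), Lhx6 (89.4 to 187.0) and both Lhx9 probe sets (3.3 to 16.7) overlapped. Lmx1b, known from dorsal horn and serotonergic neurons, read 190.4 and 84.7 in wild-type, 139.4 and 118.4 in heterozygote and 233.7 and 38.2 in knockout. Its 2 knockout arrays were the highest and the lowest of the 6.

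Tlx2 and Tlx3 encode homeodomain factors of peripheral and dorsal horn neurons. Tlx3 read 1929.2 and 1122.1 in wild-type, 1748.0 and 1143.1 in heterozygote and 2814.6 and 1801.8 in knockout. Array number 1 exceeded number 2 by 1.72, 1.53 and 1.56 times in wild-type, heterozygote and knockout, and knockout overlapped the other arrays. Within a number, knockout over wild-type was 1.46 for number 1 and 1.61 for number 2. The difference from all other arrays was 0.62 ± 0.28 (1.54-fold; adjusted p = 0.665). Tlx2 showed the same step between numbers, at 995.8 and 613.7 in wild-type, 983.4 and 585.7 in heterozygote and 1324.4 and 767.2 in knockout. Its difference was 0.37 ± 0.30 (adjusted p = 0.963), and without knockout array 1 it was -0.0080.

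**Figure D3:**
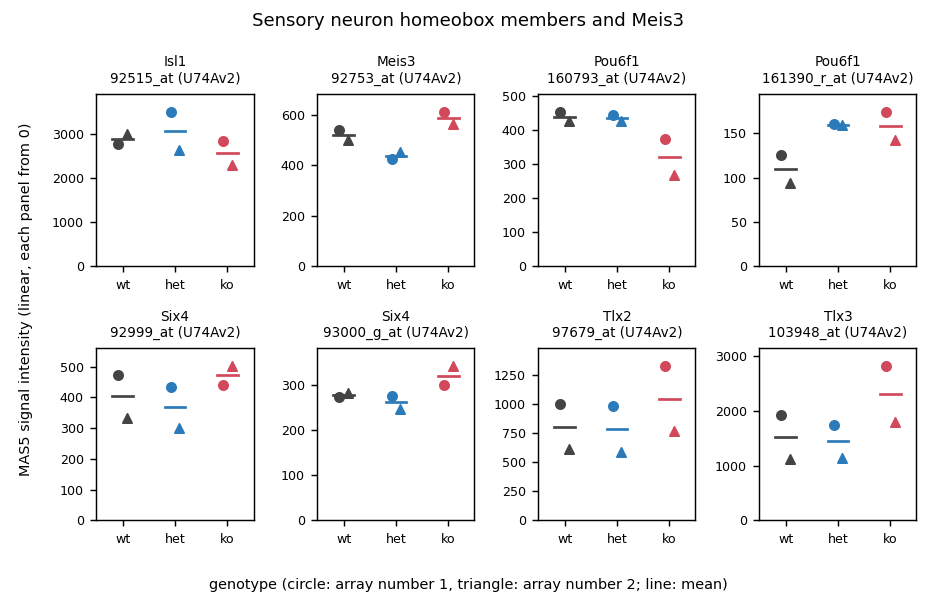
MAS5 signal (linear, each panel from 0) by genotype for the tested members with known expression in sensory neurons that are not shown above, and Meis3; circles are array number 1, triangles array number 2, lines the means. Tlx2 and Tlx3 show a step between array numbers in every genotype, Isl1 overlaps, and probe set 160793_at of Pou6f1 is lowest in knockout.

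The step between numbers was not particular to Tlx genes. Of the 69 members, 30 (43.5%) read higher on number 1 than on number 2 in all 3 genotypes, beside 23.4% of all probe sets, and 6 (8.7%, beside 26.1%) read lower in all 3. Pitx3, a factor of midbrain dopamine neurons and lens, gave a wide step, at 222.9 and 37.1 in wild-type, 247.0 and 49.9 in heterozygote and 265.7 and 54.9 in knockout. Within each number its genotypes were close to each other. The labels do not say what the numbers mean, and their part in the genotype differences was examined by fitting the number as a block. With this block, 6 of the 25 tested members were called in knockout against all other arrays (all 3 Pbx3 probe sets, Six2, Lhx1 and Tlx3), where 3.57% of all tested probe sets were called. Against wild-type there were 2 (Pbx3 93615_at and Six2; 1.74% of all) and against heterozygote 2 (Pbx3 93615_at and 93616_g_at; 1.73% of all). All of these were higher in knockout. Lhx1 could pass the filter through its knockout arrays, and Pbx3 93615_at and 93616_g_at share a target sequence. These counts therefore support nothing by themselves. Taken within numbers, knockout minus wild-type was positive in both numbers for 30 of 69 members, negative in both for 18 and of opposite sign for 21. The same split was not taken over all probe sets, and 44 of the 69 members were too dim to be tested. Nothing about the members is therefore read from it.

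**Figure D4:**
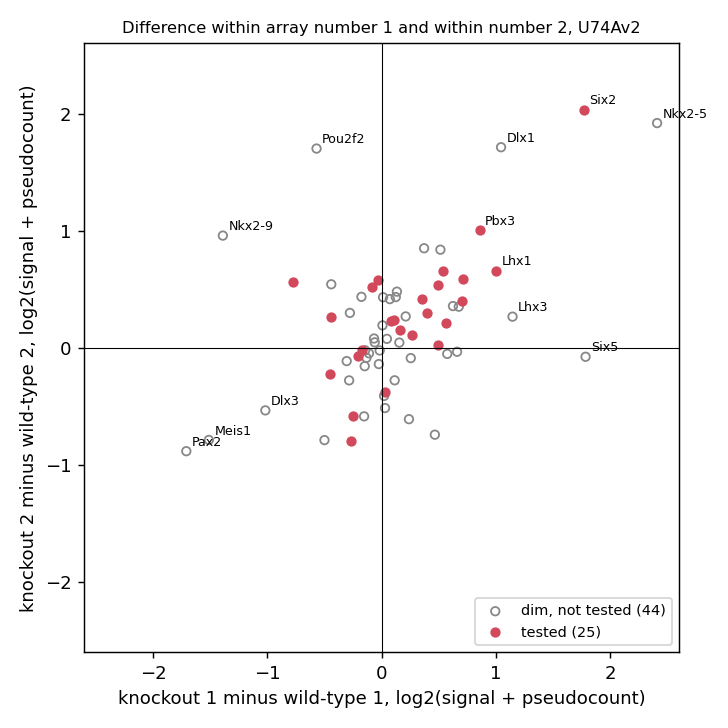
Difference of knockout minus wild-type, log2(signal + pseudocount), within array number 1 (x axis) and within array number 2 (y axis) for the 69 member probe sets on U74Av2; filled points are the 25 tested members and open points the 44 dim ones. Nkx2-5, Six2 and Dlx1 are positive in both numbers, and 21 members fall in the quadrants of opposite sign.

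Pou genes, the relatives of Pou4f1, showed no call among the probe sets that were tested. Pou6f1, which is expressed in the brain and in sensory neurons, had 3 probe sets that disagreed in sign. Probe set 160793_at read 452.7 and 425.6 in wild-type, 444.2 and 426.0 in heterozygote and 372.1 and 267.0 in knockout, lower by -0.41 ± 0.18 (adjusted p = 0.641). Probe set 161390_r_at gave 0.18 ± 0.24 and the dim 99891_at gave 0.21, both with knockout overlapping the other arrays. In 161390_r_at both wild-type arrays (125.6 and 94.3) lay below heterozygote (160.2 and 159.4) and knockout (174.2 and 142.3). Pou3f4, a factor of neural tube and inner ear mesenchyme, was weak in every array, with 35.2 and 55.3 in wild-type, 83.0 and 74.1 in heterozygote and 10.2 and 10.9 in knockout. Its difference without the filter was -0.87 ± 0.21 (adjusted p = 0.235).

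The other Pou members overlapped. Pou2f3 ranged from 292.1 to 506.0, Pou3f1 from 13.1 to 46.5 and Pou3f2 from 47.2 to 213.4. Pou2f2 and Pou3f3 were each on both array types. Pou2f2 ranged from 46.2 to 263.6 on U74Av2 and from 68.3 to 263.2 on U74Bv2, and Pou3f3 from 30.3 to 175.1 and from 23.0 to 132.6. Both Pou5f1 probe sets, for the pluripotency factor Oct4, stayed at or below 84.2. Their heterozygote arrays were the 2 highest in 103075_at (65.8 and 50.7) and the 2 lowest in 161159_r_at (27.5 and 29.5).

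Nkx2-5, best known as a cardiac factor, was dim in all controls. It read 39.2 and 24.4 in wild-type, 57.4 and 41.8 in heterozygote and 424.8 and 232.1 in knockout. Both knockout arrays stood well above the rest. It did not pass the filter, and in the fit without it the difference from all other arrays was 2.02 ± 0.29 (4.07-fold on the log2(signal + 50) scale), which was called there (adjusted p = 0.0363; 0.491% of all probe sets were called in that fit). The call was lost on leaving out any 1 array, with an adjusted p from 0.0112 to 0.164 over all alternatives.

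Nkx3-2, a factor of axial and jaw skeleton, read 18.8 to 48.8 outside the knockout and 70.7 and 73.1 in it (0.52 ± 0.20 without the filter; adjusted p = 0.562). Nkx1-2 was the only tested Nkx gene. It read 389.9 and 131.5 in wild-type, 333.1 and 130.4 in heterozygote and 598.4 and 160.0 in knockout, and followed the array number. Nkx2-2, Nkx2-3, Nkx2-6, Nkx2-9 and Nkx6-2 overlapped, and among these 5 only Nkx2-9 exceeded 100 on any array, with 240.6 on wild-type array 1.

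Dlx1, a factor of forebrain interneurons and branchial arch mesenchyme, read 10.8 and 12.0 in wild-type, 12.3 and 10.6 in heterozygote and 75.5 and 153.7 in knockout. The 4 control arrays lay within 2 units of signal of each other, and both knockout arrays lay above them. Without the filter the difference was 1.38 ± 0.20 (2.60-fold on the same scale), called in that fit (adjusted p = 0.0394), with an adjusted p from 0.0184 to 0.147 over its alternatives. Its neighbour Dlx2 read 43.3 and 51.3 in wild-type, 71.3 and 44.0 in heterozygote and 70.7 and 132.8 in knockout, and overlapped (0.54 ± 0.24; adjusted p = 0.699). The antisense transcript Dlx1as, which is no member, read 21.3 to 93.4 outside the knockout and 48.7 and 36.9 in it. Dlx3 and Dlx4 ranged from 45.9 to 234.7, and Dlx5 and Dlx6 never exceeded 23.5.

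Irx2, an Iroquois factor of neural and heart patterning, was measured on U74Bv2 only. It read 90.6 in the wild-type array, 10.4 and 51.6 in heterozygote and 422.9 and 502.2 in knockout. Both knockout arrays were above the 3 others. Without the filter, the difference was 2.43 ± 0.38 from all other arrays (5.38-fold; adjusted p = 0.0305, with 1.31% of all probe sets called) and 2.71 ± 0.37 from heterozygote (adjusted p = 0.042, with 0.435% called). It was 1.86 ± 0.45 from the single wild-type array (adjusted p = 0.273, with 0.169% called). Over its alternatives the adjusted p against all other arrays ran from 0.0197 to 0.197. Irx1, a neighbour in its gene cluster, is not a member. It read 647.1 in wild-type, 552.4 and 568.5 in heterozygote and 3919.4 and 3542.4 in knockout by probe set 111555_f_at. Irx5 read 100.5 to 108.3 outside the knockout and 82.4 and 93.1 in it. Irx3, on U74Av2, overlapped between 100.5 and 176.7.

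Paired-box genes, several of which mark placodes, neural crest or midbrain, gave mixed signs. Pax2 read 233.2 and 87.2 in wild-type, 166.0 and 50.6 in heterozygote and 36.5 and 24.3 in knockout. It was lower in knockout by -1.09 ± 0.41 without the filter (adjusted p = 0.559), with a step between array numbers as well. Pax5 probe set 96993_at read 218.8 and 162.6 in wild-type, 63.9 and 106.5 in heterozygote and 212.8 and 267.4 in knockout. The heterozygote arrays were the 2 lowest, and the difference of heterozygote from wild-type was -0.84 ± 0.30 (adjusted p = 1). Its other probe set, 102578_at, overlapped between 12.4 and 62.8.

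Pax3, an early marker of the ophthalmic trigeminal placode and of neural crest, ranged from 92.2 to 186.7 and overlapped. Pax1 (104.2 to 230.2) and Pax4 (104.4 to 425.2) overlapped as well, and the 2 wild-type arrays were the lowest for Pax1. Pax6 (5.3 to 62.0), Pax8 (42.9 to 74) and Pax9 (11.0 to 59.5) were not tested.

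Pitx1 and the members of the Msx, Alx, Otx, Prrx and Phox families mostly overlapped. Msx1 ranged from 182.1 to 377.8, Msx3 from 222.8 to 521.9 and Msx2 from 7.7 to 18.4, and all overlapped. Alx4 (104.1 to 246.4) and Pitx1 (102.4 to 344.3) overlapped on U74Av2, as did Alx1 (5.1 to 55.7) and Otx1 (14.2 to 64.9) on U74Bv2. Prrx1 probe set 99021_at read 25 to 80.0 outside the knockout and 91.0 and 97.9 in it, whereas its 2 probe sets on U74Bv2 overlapped at or below 60.3. Prrx2 ranged from 36.0 to 167.8. Phox2a, which directs autonomic and cranial visceral neurons, read 22.3 to 37.4 outside the knockout and 75.5 and 42.6 in it, a gap of few units at a low signal.

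Other homeobox genes outside the Hox clusters, from a list of 78 genes that are not members, included calls in both directions. On U74Av2, 41 were measured and 20 tested. In knockout against all other arrays, where 0.872% of all tested probe sets were called, 1 rose and 2 fell. Shox2, a factor of sensory neurons and limb, rose by 1.23 ± 0.19 (adjusted p = 0.0309; its probe set is of the _s_at kind). Hmx1, a sensory ganglion factor, and Meis2, a TALE cofactor, had fallen, Hmx1 by 2.23 ± 0.24 against wild-type (adjusted p = 0.0187) and Meis2 by 1.75 ± 0.22 against all other arrays (adjusted p = 0.0122). On U74Bv2, 13 were measured and 9 tested, and Irx1 alone was called, higher by 2.57 ± 0.14 against all other arrays (adjusted p = 3.6e-05, with 2.93% of all tested probe sets called). It was also called against wild-type and heterozygote, where 1.4% and 1.71% of all were, and heterozygote against wild-type gave 0%. In point estimates, the members of these 2 families did not all share the sign of Meis2 and Irx1. Meis1 was lower in knockout, as Meis2 was, and Meis3 higher. Irx2 was higher, as Irx1 was. Against all other arrays, Irx5 differed by -0.17 ± 0.24 without the filter (limma adjusted p = 0.895) and Irx3 by -0.03. The 95% intervals of Meis3, Irx5 and Irx3 included 0, so their signs are not resolved.

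Partner proteins, such as LIM cofactors, Eya coactivators and homeodomain-interacting kinases, were listed as 26 genes. On U74Av2, 20 were measured, 15 tested, 2 rose against all other arrays and 0 fell, beside 0.872% of all tested probe sets called. They were Lmo1, a LIM-only protein that competes for LIM cofactors (0.95 ± 0.16; adjusted p = 0.043), and Hipk2, a kinase that binds homeodomain proteins including Brn3a (adjusted p = 0.0391). Hipk2 was called again on U74Bv2, the single one of 8 tested partners there (1.13 ± 0.23; adjusted p = 0.0324), beside 2.93% of all. The median difference over the 15 tested partners on U74Av2 was 0.05, beside 0.02 for all probe sets. These lists were drawn up with earlier results of the data known.

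The label of the tissue was checked against its markers. Each marker gene was counted only by its probe set of highest mean signal. The same holds for the lists of other homeobox genes and partner proteins. Of 11 trigeminal neuron markers, 10 were measured on U74Av2, from a mean signal of 330.3 for Scn9a to 24110 for Tubb3. Their summed signal ran from 70920 to 72760 in wild-type, 79450 to 96490 in heterozygote and 71600 to 75850 in knockout, and none of the 10 was called. Both knockout arrays were below all others for 4 of the 10 and above for 0, beside 6.63% and 8.66% of all probe sets. On U74Bv2, 5 were measured and 4 tested, with 3 of the 5 below all others and 0 above, beside 11.7% and 13.6%. The weakest of the 5 was Snap25, at a mean of 24.6. Scn9a, a sodium channel of nociceptors, fell there by 0.94 ± 0.18 against all other arrays (limma adjusted p = 0.0249, with 2.93% of all tested probe sets called). Their part in the differences of the homeobox genes was not tested. Pou4f1 itself, on U74Bv2, read 3313.1 in wild-type, 2196.0 and 3570.1 in heterozygote and 549.8 and 904.3 in knockout. Heterozygote array 1 lay between knockout and wild-type, and heterozygote array 2 above both.

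Markers of other cell types moved with the knockout in part, and since Six2, Dlx1, Nkx2-5 and Lhx1 are known outside sensory neurons their values stand here beside those genes. The summed signal of 14 mesenchyme and connective tissue markers was 12120 to 12860 in wild-type, 13410 to 13420 in heterozygote and 14920 to 16090 in knockout. For 4 of the 14 both knockout arrays were above all others and for 0 below, 0 of 11 tested were called, and the lowest mean was 70.8 (Pdgfrb). Central nervous system markers, 11 measured, summed to 8735 to 10120, 9760 to 10220 and 10800 to 11940 in the same order, with 1 above and Gad2 near 0 at a mean of 6.40. The brightest of them, Dcx, had a mean of 5858. It made up a large part of the sum, which does not stand for the list as a whole or for central nervous tissue. The 12 skeletal muscle markers summed to 2710 to 3314, 2666 to 3393 and 2860 to 3779, with 2 above and Myf5 near 0 at a mean of 5.42. For glia, 7 markers summed to 16040 to 17110, 17620 to 19910 and 19370 to 23020, with 0 above and 1 below. Fabp7, the brightest of the 7, had a mean of 12760, so this sum does not stand for the glial list as a whole either. On U74Bv2 the glial marker Sox10 read 2904 in wild-type, 2863 to 3063 in heterozygote and 3082 to 4517 in knockout. Cartilage and bone markers, 5 measured, summed to 371.8 to 529.0, 557.7 to 589.6 and 561.9 to 796.3 on U74Av2, with 1 above. The 2 on U74Bv2 summed to 350.8, 316.4 to 326.0 and 398.3 to 440.6, with 1 above. Also on U74Bv2, 4 central nervous system markers had 0 above and 1 below. Mesenchyme, endothelium and red blood cells had 1 marker each there (Sparc, Flt1 and Hbb-y), with 0 above and 0 below. These U74Bv2 markers were weak, the brightest being Flt1 at a mean of 168.2, and 0 of them were tested. Of 6 endothelial markers on U74Av2, 2 were above and 1 below, and of 6 red blood cell markers 0 were above and 0 below. Pituitary markers, relevant to Lhx3, summed to 2550 to 3061, 2554 to 2987 and 2497 to 3006, with 0 of 8 above. Of the 7 epithelial markers 0 were above. Over all probe sets, both knockout arrays were above all others for 8.66% on U74Av2 and 13.6% on U74Bv2. They were below all others for 6.63% and 11.7%. The part of these cell types in the differences of the homeobox genes was not tested.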

How the data were processed

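RNA from pooled ganglia was hybridised to Affymetrix U74Av2 (6) and U74Bv2 (5) arrays. The deposited values are MAS5 signal intensities on a linear scale, per the submitters' processing notes, which give no version. The trimmed mean (2% at each end) was 500.26 to 500.29 on U74Av2 and 497.61 to 498.38 on U74Bv2, so arrays were already scaled. Probe sets were named by the platform annotation. On U74Av2, 10855 had 1 symbol, 396 several and 1237 none, and on U74Bv2 these were 10581, 178 and 1652. Of the probe sets with 1 symbol, 10839 and 10550 matched RefSeq by Entrez number and no symbol changed.

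Signals plus a pseudocount of 0.1 of the trimmed mean were taken as log2. The 66 control probe sets of U74Av2 and those at or below the 40th percentile of mean log2 value were left out, leaving 7453 and 7446. limma 3.58.1 in R 4.3.3 (lmFit, then eBayes with a mean trend, two-sided) fitted the genotype, or knockout against all other arrays, per array type, with Benjamini-Hochberg adjustment over all tested probe sets. The fit was tested on simulated data: a log2 change of 1 was recovered for 64.2% of seeded probe sets in knockout against all other U74Av2 arrays and for 36.3% against wild-type, and a change of 2 for 98.5% and 95.5%. The simulation seeded 201 probe sets at each of these sizes, while 65 were called in the real data against all other arrays. With more changed probe sets the adjustment is more lenient, so recovery in the real data may be lower. Figures used Python 3.11.15 and matplotlib 3.10.9.

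Values in every array were given for members with an unadjusted p below 0.05 and no overlap between knockout and other arrays (up to 12 per array type), the 8 tested members of highest mean signal, and members on a list of sensory neuron homeobox genes. Others are given by range, apart from single values chosen after they were seen. The members, lists and rules were chosen with earlier results of these data known. Alternatives were another pseudocount, no filter, no trend, quantile normalization, the array number as a block and leaving out each array. Members named but dim were fitted without the filter, an alternative chosen after seeing the data. Same-numbered U74Av2 arrays deviated together (correlations over probe sets of 0.571, 0.619 and 0.533), but 2 numbers do not establish pairs, and on U74Bv2 the value was 0.103. The number of arrays limits the precision.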

Additional observations from a re-analysis of the deposited data

How the results depend on the processing

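The count of called members on U74Av2 was 0 in all 4 comparisons and stayed 0 in 43 of 48 alternatives. On U74Bv2 no member passed the filter, so a count of 0 there says nothing. With the array number as a replicate block it was 2 for knockout against wild-type, 2 for knockout against heterozygote and 6 for knockout against all other arrays on U74Av2, all higher in knockout, and over all tested probe sets the count rose from 65 to 266 in the last. The 6 include Lhx1, which could pass the filter through its knockout arrays, and 2 Pbx3 probe sets that share a target sequence. The numbers are not shown to pair arrays, so the block is not the reported fit. Without the filter the count was 2 on U74Av2 (Nkx2-5 and Dlx1, knockout against all other arrays) and on U74Bv2 1 against heterozygote and 1 against all other arrays (both Irx2). Leaving out each array gave 0 to 1, the 1 being Six2 without heterozygote array 2. Of 536 alternatives for 47 values of named members, 535 kept their sign. The exception was Tlx2 in knockout against all other arrays, at -0.0080 without knockout array 1 and 0.742 without knockout array 2. Calls made without the filter were fragile: Nkx2-5 was called in 5 of its 11 alternatives and Dlx1 in 4 of 11, and for Irx2 these were 3 of 10 against all other arrays and 4 of 10 against heterozygote. The cause was not tested. Groups of 2 arrays, and 1 wild-type array on U74Bv2, limit what can be seen: 53 of the 78 probe sets were too dim to be tested, and a log2 change of 1 was often missed in simulated data.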

Other observations

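Transcripts from genes next to Lhx1 and Irx2 were measured too. Lhx1os, an opposite-strand transcript at Lhx1 that is no homeobox gene, read 369.5 in the wild-type array, 104.2 and 208.5 in heterozygote and 538.3 and 482.9 in knockout on U74Bv2, with both knockout arrays above the 3 others, as both knockout arrays were for Lhx1 on U74Av2. The homeobox gene Irx1, which the choice of members left out, had a second probe set, 111554_i_at, that read 206.1 in wild-type, 240.2 and 193.4 in heterozygote and 973.8 and 1009.9 in knockout. Both knockout arrays were above the others, as in the other Irx1 probe set and in Irx2. The Irx1 probe sets were designed on the same transcript record and are not separate evidence. Over all U74Bv2 probe sets, 13.6% had both knockout arrays above the others.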
